A study of Bos taurus with 10 samples.

Results

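The genes described here are 8 germline-associated genes, *KIT*, *KITLG*, *DPPA3*, *PRDM1*, *PRDM14*, *NANOS3*, *DDX4* and *DAZL*, chosen by name for their roles in germ cells. Their symbols were looked up among the 20112 genes measured in single bovine early blastocysts, and 7 of the 8 were found. *NANOS3* was not analysed here. All 7 passed the filter of a mean normalized read count of at least 1 over the 10 embryos.

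The embryos were produced by in vitro fertilization and both groups received mRNA of BE3, a cytosine base editor, as zygotes. The 5 WT embryos received the mRNA alone. The 5 *SOX2* KO embryos also received a mixture of sgRNAs that lets BE3 write premature stop codons into *SOX2*. The labels give the age as 7.0 days after fertilization, while the text of the study gives a later day. The zona pellucida was removed and each embryo was sequenced whole by Smart-seq2, which copies polyadenylated RNA. Inner cell mass, trophectoderm and hypoblast cells of an embryo were therefore measured together, so fewer cells of a type and less RNA per cell cannot be told apart. Genotypes rest on cDNA sequencing by the authors, because read counts per gene do not show an edited base.

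Primordial germ cells are the founders of eggs and sperm. They are set aside after implantation, or in cattle during the elongation period, so a blastocyst has none. Several of their genes are already in use in the pluripotent cells of the blastocyst or are carried over in the cytoplasm of the oocyte. *KIT* encodes a receptor tyrosine kinase and *KITLG* its ligand, stem cell factor, and the pair guides the survival and migration of germ cells. *DPPA3* (also called STELLA) encodes a small protein that protects the maternal genome from demethylation after fertilization. *PRDM14* and *PRDM1* (BLIMP1) encode zinc finger regulators needed for germ cell specification in the mouse, and *PRDM14* also serves naive pluripotency. *DDX4* (VASA) encodes an RNA helicase of the germ granule, and *DAZL* an RNA-binding regulator of translation in germ cells.

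Between 2223670 and 5134855 reads on genes were available per WT embryo and between 2578284 and 4337342 per *SOX2* KO embryo. The values below are normalized read counts, that is reads divided by the size factor of the embryo, and means are given with the SD over the n = 5 embryos of a group. Genes with at least 1 read numbered 15919 to 18092 per WT embryo, against 17987 to 19813 per *SOX2* KO embryo, so more genes were detected in most KO embryos. Over the 20056 genes that were tested, the median log2 fold change (log2FC, KO against WT) was 0.25. limma called 8.93% of them higher and 1.16% lower in *SOX2* KO embryos. A gene was called when its Benjamini-Hochberg adjusted p was at most 0.05 and its fold change at least 2 or at most 0.5. *SOX2* itself had a log2FC of -0.55 with overlapping groups (limma adjusted p = 0.167).

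Of the 7 genes, 3 were called lower in KO blastocysts, against 1.16% of all genes, namely *KIT*, *DPPA3* and *PRDM14*, and 0 were called higher. *PRDM14* is among the pluripotency genes that the study picked out in these same embryos, and the falls of *KIT* and *DPPA3* were known when the 8 genes were chosen, so none of the 3 is independent evidence of its direction. The groups did not overlap for these 3 genes, which was true of 2.76% of all tested genes in the same direction. *KITLG*, *PRDM1*, *DDX4* and *DAZL* were not called, and each of them had overlapping groups.

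**Figure D1:**
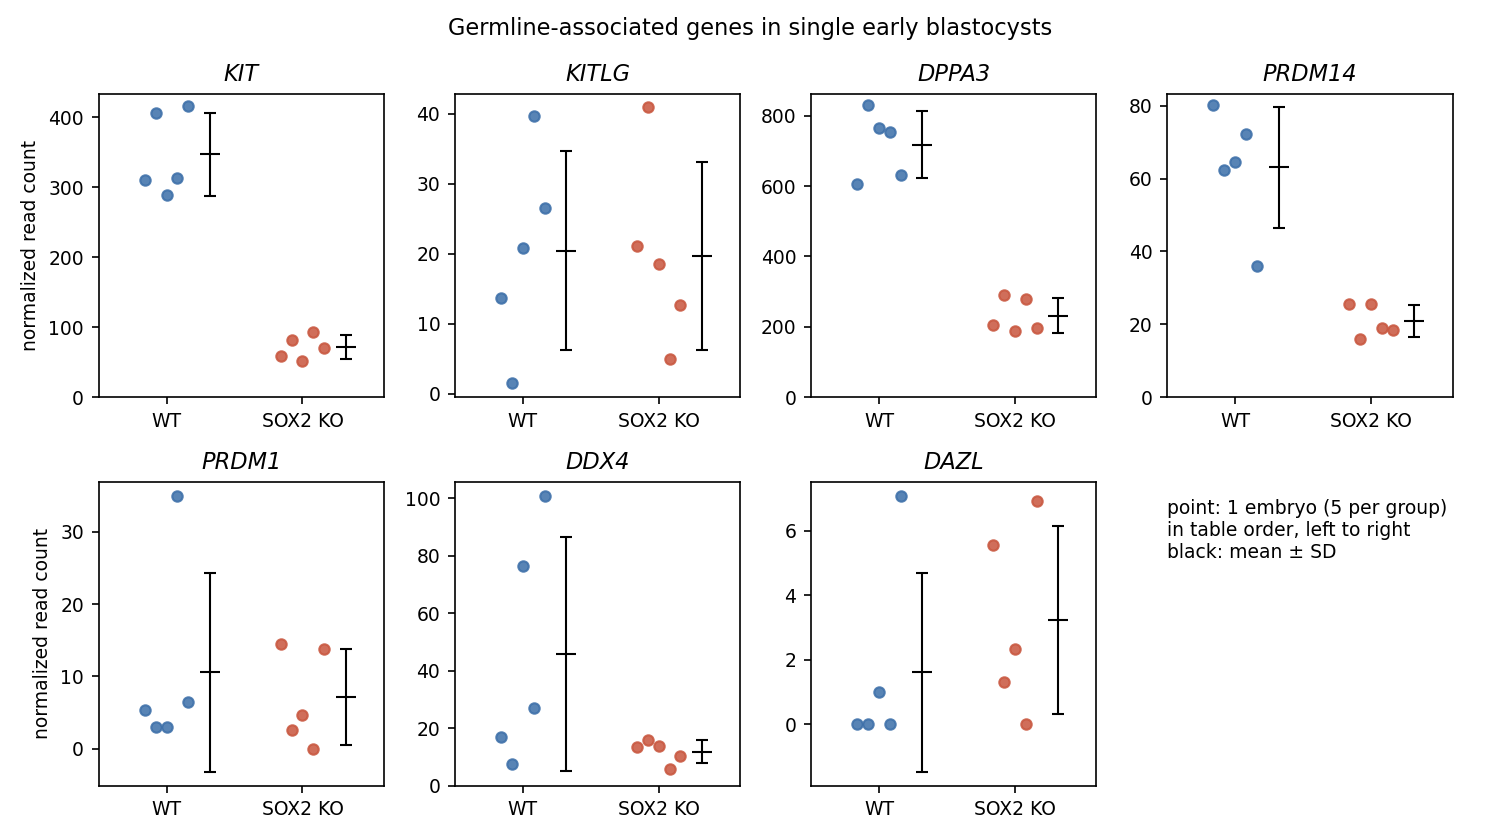
Normalized read counts (vertical axes, 1 scale per gene) of 7 germline-associated genes in 5 WT (blue) and 5 *SOX2* KO (red) early blastocysts, with 1 point per embryo and black bars for the mean and the SD. The groups of *KIT*, *DPPA3* and *PRDM14* are apart, whereas those of *KITLG*, *PRDM1*, *DDX4* and *DAZL* overlap.

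*KIT* reached 310, 406, 288, 313 and 416 normalized reads in the 5 WT embryos. The KO blastocysts, in the order of the table, had 59.0, 81.9, 52.3, 93.6 and 70.3. Even the lowest WT embryo was 3.08 times above the highest KO blastocyst. The means were 347 ± 59.5 and 71.4 ± 16.8, which leaves 20.6% of the WT level. The log2FC was -2.28 (standard error 0.19, 95% interval -2.67 to -1.89, limma adjusted p = 4.32e-07). By p-value *KIT* ranked 3 among the 20056 tested genes and 2 among the genes called lower. The values rest on 2077 reads in WT and 335 in KO blastocysts.

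The gene of the KIT ligand was not called. *KITLG* had 13.7, 1.48, 20.9, 39.6 and 26.6 in WT and 21.2, 40.9, 18.6, 4.93 and 12.7 in KO blastocysts. Both groups span much the same range, and the lowest values, of WT replicate 2 and ko4, rest on 1 and 6 reads. The means were 20.5 ± 14.2 and 19.7 ± 13.4. The log2FC of 0.14 had an interval from -1.14 to 1.43 (limma adjusted p = 0.895), which includes a 2-fold change in either direction. Its sign turned under 5 of the alternative analyses. *KITLG* is made by the granulosa and cumulus cells around the oocyte. Of 13 genes listed as markers of those cells, 12 were in the table, none at 0 in every embryo and 6 below 10 in every embryo. Their summed normalized read counts were 40.0 to 114 in WT and 101 to 151 in KO blastocysts. Of the 12, 2 (16.7%) were called higher, against 8.93% of all tested genes, namely *DCN* and *COL1A1*, which are not specific to these cells. The 10 others were not called. Those with the highest means, *STAR*, *FSHR* and *CYP19A1*, had log2FCs of 0.31, 0.38 and 0.03. By the methods of the study, cumulus cells were pipetted off at the zygote stage. The part of any that remained in the *KITLG* reads was not tested.

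*DPPA3* was the gene with the most reads among the 7. It had 607, 830, 764, 754 and 632 in WT and 206, 291, 187, 280 and 196 in KO blastocysts. The WT embryos lay within a narrow range, with a coefficient of variation of 13.2%, and every one of them was at least 2.09 times above the highest KO blastocyst. The means were 717 ± 94.6 and 232 ± 49.3, so that 32.3% of the WT level was left. The log2FC was -1.64 (standard error 0.16, 95% interval -1.98 to -1.30, limma adjusted p = 4.86e-06), on 4164 and 1077 reads.

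*DPPA3* is also a maternal transcript of the oocyte, and other transcripts of that kind were set beside it. Of 15 oocyte markers 13 were in the table, among them *ZP3*, *GDF9*, *BMP15* and *ZAR1*. Their summed normalized read counts were 63.3 to 162 in WT and 65.7 to 108 in KO blastocysts. Of the 13, 0 were called lower and 1 was called higher, *NLRP5*, with at most 3.05 in WT and 2.31 to 6.98 in KO blastocysts. Of the 13, 10 had a mean under 10. At that level 0.195% of the tested genes were called lower and 14.1% higher, so a lack of calls lower says little there. *ZP3*, *OOEP* and *BMP15* had the highest means, with log2FCs of 0.13, -0.48 and -0.10, and were not called. *BMP15* ran from 0 to 70.7 in WT, and its interval of -2.17 to 1.97 includes a 2-fold change in either direction. The part of maternal transcripts in the *DPPA3* reads was not tested.

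*PRDM14* had 80.1, 62.3, 64.6, 72.3 and 36.0 in WT and 25.6, 15.8, 25.6, 18.9 and 18.4 in KO blastocysts. The fifth WT embryo was the lowest of its group and still 1.41 times above the highest KO blastocyst. The means were 63.1 ± 16.7 and 20.9 ± 4.46, which is 33.1% of the WT level. The log2FC was -1.53 (standard error 0.27, 95% interval -2.10 to -0.96, limma adjusted p = 0.00168). Among KO blastocysts the SD of 4.46 was no larger than the 4.82 that counting of the 96 reads alone would give, whereas in WT the SD exceeded the 7.68 from counting.

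The other PRDM member was detected weakly and unevenly. *PRDM1* had 5.34, 2.97, 2.98, 35.0 and 6.49 in WT and 14.5, 2.64, 4.65, 0 and 13.8 in KO blastocysts. A single WT embryo, replicate 4, held 45 of the 68 WT reads. The log2FC of -0.50 had an interval from -2.03 to 1.02 (limma adjusted p = 0.665). Without WT replicate 4 it was 0.05 and without the KO blastocyst ko4, which had 0 reads, 0.11, so these data give no direction for *PRDM1*.

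Of the 10 other genes of the PRDM family that were measured, 0 were called lower and 2 (20%) higher. Of all tested genes, 1.16% were called lower and 8.93% higher, so 0 calls lower among 10 genes says little. The median log2FC of the 10 was 0.64, against 0.25 over all tested genes. The called genes, *PRDM16* and *PRDM9*, were almost silent in WT embryos. *PRDM16*, which is known from brown fat and blood stem cells, had 0.76, 1.48, 1.99, 0 and 0 in WT and 33.4, 5.28, 17.4, 4.93 and 25.4 in KO blastocysts (limma adjusted p = 0.00319). *PRDM9*, the methyltransferase that places meiotic recombination, stayed at 5.81 or less in every embryo (limma adjusted p = 0.0394). At a mean under 10, 14.1% of the tested genes rose past both thresholds. *PRDM2*, *PRDM4* and *PRDM10* had the highest means of the family and log2FCs of 0.11, 0.24 and 0.62, and they were not called.

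*DDX4* varied widely among the WT embryos and little among the KO blastocysts. It had 16.8, 7.42, 76.6, 27.2 and 101 in WT and 13.4, 15.8, 14.0, 5.75 and 10.4 in KO blastocysts. Of the 5 WT embryos, 4 were above every KO blastocyst, and the remaining one, replicate 2, had 5 reads in the smallest library. The means were 45.8 ± 40.8 and 11.9 ± 3.94. The log2FC was -1.38 (standard error 0.53, 95% interval -2.49 to -0.27), and its limma adjusted p of 0.0826 did not pass. The count tests on the recovered reads did call it, with a log2FC of -1.97 and adjusted p of 0.00721 in DESeq2 and of -2.08 and 0.0135 in edgeR. These tools called 1.18% and 1.49% of all genes lower. limma called it as well without WT replicate 2, at -1.86 (adjusted p = 0.0191), and with quantile normalization, at -1.79 (adjusted p = 0.0344). Without WT replicate 5 the log2FC was -0.96 (limma adjusted p = 0.226). The WT embryos with the highest *DDX4*, replicates 3 and 5, were also those with the highest *XIST*, at 2326 and 2144, against 1819, 11.9 and 429 in replicates 1, 2 and 4. With *XIST* (log2) as a covariate the log2FC was -1.58 (limma adjusted p = 0.0150).

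*DAZL* was at or under 3 reads, the floor of detection, in most embryos. It was listed at 0 in 3 of the WT embryos and had 0.99 and 7.08 in the other two, and in KO blastocysts it had 5.57, 1.32, 2.33, 0 and 6.92. In all, 13 reads were found in WT and 14 in KO blastocysts. The interval of its log2FC, -0.49 to 2.35 around 0.93, includes no change (limma adjusted p = 0.356), and at this depth no difference was detectable.

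**Figure D2:**
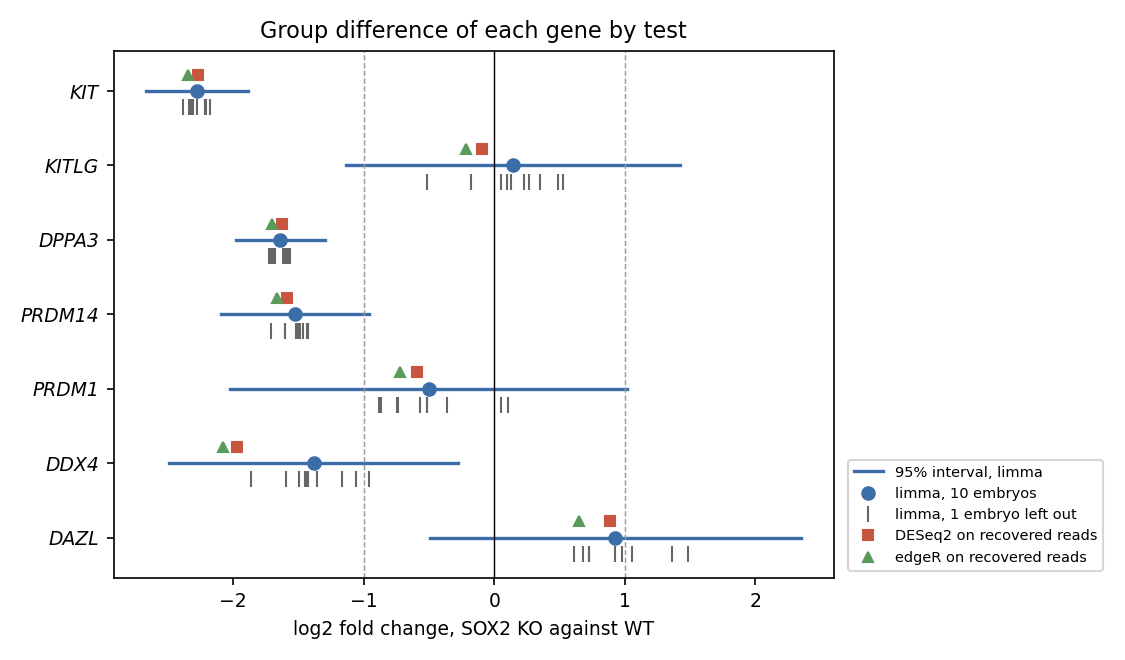
Log2FCs of *SOX2* KO against WT embryos (horizontal axis) for 7 germline-associated genes (vertical axis), by limma with its 95% interval (blue), by limma with each embryo left out (grey ticks), by DESeq2 (red squares) and by edgeR (green triangles). *KIT*, *DPPA3* and *PRDM14* stay below -1 in every fit shown, *DDX4* lies below 0 in every fit, and the fits of *KITLG* and *PRDM1* fall on both sides of 0.

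The called genes kept their calls in all fits that were run. With each embryo left out in turn, the log2FC was -2.38 to -2.17 for *KIT*, -1.73 to -1.57 for *DPPA3* and -1.71 to -1.43 for *PRDM14*. Over the 13 alternatives of scaling, pseudocount, filter, covariate and test it was -2.40 to -1.99, -1.76 to -1.47 and -1.75 to -1.37. The 18S ribosomal RNA gene *RN18S1* accounted for 26.4% to 37.0% of WT reads and for 32.5% to 45.0% of KO reads. With this share as a covariate, *KIT*, *DPPA3* and *PRDM14* had limma adjusted p of 6.94e-05, 0.000520 and 0.0125.

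The inner cell mass and epiblast markers had a lower summed level in KO blastocysts, though single markers differed widely. Of 13 such markers 11 were tested, *PRDM14* among them. Of the 11, 4 (36.4%) were called lower and 0 higher, against 1.16% and 8.93% of all tested genes. *NANOG*, *KLF17* and *ZFP42* had log2FCs of -3.70, -1.71 and -1.04, while *ESRRB* and *DNMT3B* had 0.06 and -0.07. The falls of *KIT*, *DPPA3* and *PRDM14* thus lay between those of single markers. The summed normalized read counts of the 11 markers were 2360 to 3028 in WT and 1655 to 2174 in KO blastocysts. *POU5F1* held the largest part of that sum. The sum over 14 trophectoderm markers was 25844 to 37664 in WT and 35815 to 48897 in KO blastocysts, and none of these markers was at 0 in every embryo. Most of this sum came from the keratin genes *KRT8* and *KRT18*, with means of 17496 and 9100 in WT and 22437 and 15124 in KO blastocysts. Of the 14 markers, 2 (14.3%) were called higher, against 8.93% of all tested genes, namely *ASCL2* and *DLX3*. The 12 others were not called, the keratin genes among them. *POU5F1*, the gene of OCT4, averaged 1212 ± 188 in WT and 723 ± 118 in KO blastocysts, a log2FC of -0.75 (limma adjusted p = 0.00631).

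*POU5F1* was taken as 1 reference with many reads. In cattle it is also active in the trophectoderm at this stage, so it does not stand for the inner cell mass, and another marker would give other differences. Within each embryo the log2(normalized read count + 1) of one gene was subtracted from that of another, and the difference was compared between the groups. Transcript length was not corrected, so the level of such a difference has no meaning and only its shift between the groups does. The 6 pairs were chosen after the values were seen. *KIT* fell by 1.53 more than *POU5F1* on the log2 scale, and *DPPA3* fell by 0.89 more. For both pairs the 2 groups did not overlap (exact permutation test, two-sided, p = 0.00794, the smallest value that 5 embryos against 5 allow, and 0.0159 after Benjamini-Hochberg adjustment over 6 pairs). *PRDM14* fell by 0.78 more than *POU5F1* (exact permutation p = 0.0159, adjusted 0.0238), with overlapping groups. *KIT* also fell by 0.64 more than *DPPA3*, from -1.05 ± 0.31 in WT to -1.69 ± 0.16 in KO blastocysts (exact permutation p = 0.00794, adjusted 0.0159). *PRDM14* and *DPPA3* shifted against each other by 0.11, which was within the spread of the embryos (exact permutation p = 0.730). The shift of -0.75 between *KIT* and *PRDM14* did not pass either (exact permutation p = 0.119).

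**Figure D3:**
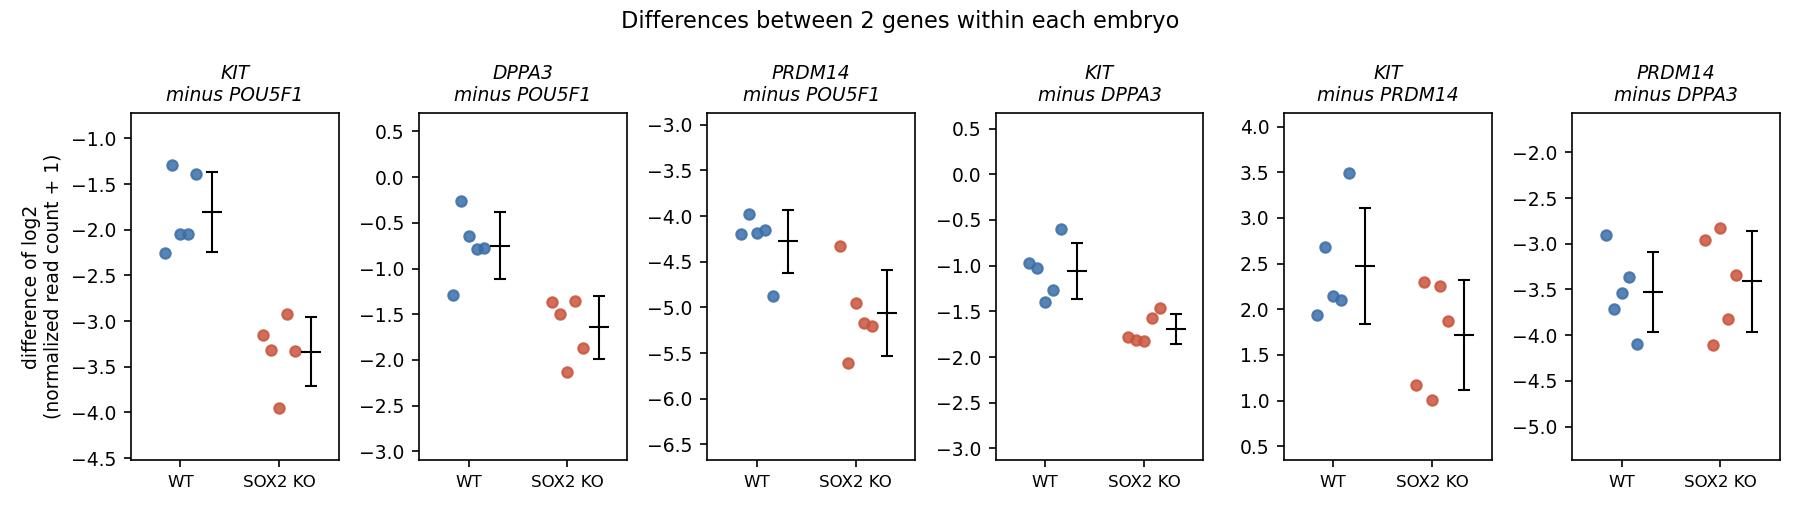
Differences of log2(normalized read count + 1) between 2 genes within each embryo (vertical axes, each spanning the same number of log2 units), for 6 pairs of genes in WT (blue) and *SOX2* KO (red) embryos, with the mean and SD in black. The groups are apart for *KIT* and *DPPA3* against *POU5F1* and for *KIT* against *DPPA3*, and they overlap for the 3 other pairs.

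Other genes of germ cell specification did not move as one group. Of 22 tested genes of this list, 2 were called lower and 2 higher, 9.09% each, against 1.16% and 8.93% of all tested genes. The median log2FC of the list was -0.15, against 0.25 over all tested genes. With no fold threshold, 6 of the 22 were lower and 2 higher, against 641 and 2081 of the 20056 tested genes. *NANOG* fell from 69.8 ± 55.8 to 4.21 ± 3.39, with a log2FC of -3.70 (limma adjusted p = 0.00127). *CBFA2T2*, a co-repressor known to act with PRDM14, had 174, 165, 172, 153 and 106 in WT and 61.2, 64.7, 52.3, 71.5 and 78.4 in KO blastocysts. Its groups did not overlap, and its log2FC was -1.21 (standard error 0.19, limma adjusted p = 0.000624). Its relative *CBFA2T3* was called higher, from at most 1.99 in any WT embryo to between 1.64 and 17.8 in KO blastocysts (limma adjusted p = 0.0106). *PDPN*, a membrane glycoprotein that germ cells and trophoblast both carry, rose from 828 to 1764 on average, a log2FC of 1.07 (limma adjusted p = 0.00206). *TFAP2C*, a germ cell and trophectoderm regulator, had a log2FC of -0.49 (limma adjusted p = 0.0352), short of the threshold on the fold change. *TFCP2L1* had -0.15 (limma adjusted p = 0.535).

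Among receptors related to KIT, the platelet-derived growth factor receptors differed in direction. *PDGFRA*, which marks the hypoblast, had 156, 369, 177, 159 and 174 in WT and 77.9, 18.5, 84.9, 39.4 and 50.7 in KO blastocysts, a log2FC of -2.01 (limma adjusted p = 0.000709). The hypoblast list did not move as one group. Of its 9 tested markers, 2 were called lower, *PDGFRA* and *HNF4A*, and 2 higher, *APOA1* and *BMP2*, with log2FCs of 1.71 and 1.65. That was 22.2% in each direction, against 1.16% lower and 8.93% higher of all tested genes. *HNF4A* fell from 94.6 to 13.0 on average, with no overlap (log2FC -2.85, limma adjusted p = 9.09e-05). The summed normalized read counts of the hypoblast list were 1629 to 1937 in WT and 1835 to 2026 in KO blastocysts. *PDGFRB* had 0 to 9.94 in WT and 5.75 to 19.6 in KO blastocysts and was called higher with overlapping groups (limma adjusted p = 0.0378). Its mean was under 10, a level at which 14.1% of the tested genes were called higher. Of the carriers of the KIT signal, the docking protein gene *GAB1* rose from 85.0 to 228 on average (log2FC 1.39, limma adjusted p = 0.000272). *CBL*, the ubiquitin ligase that removes activated KIT, rose from 186 to 377 (log2FC 1.03, limma adjusted p = 0.000872). The 32 other tested genes of this list were not called. They include *PTPN11*, *PIK3CB* and *SOS1*, with log2FCs of -0.16, 0.04 and -0.22 and limma adjusted p of 0.412 to 0.866. Of the 36 tested genes, 8.33% were called higher and 2.78% lower, against 8.93% and 1.16% of all tested genes. Over the 36 the median log2FC was 0.07.

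Of 10 tested DPPA genes and DNA methylation regulators that DPPA3 is known to work with or against, 0 were called at both thresholds. Of all tested genes, 10.1% were called in either direction. *TET1*, a methylcytosine dioxygenase, had 1437 in WT and 1354 in KO blastocysts on average, a log2FC of -0.09 (limma adjusted p = 0.715). *DPPA2* had -0.92 (limma adjusted p = 0.0163) and *TRIM28* -0.47 (limma adjusted p = 0.0407), both short of the threshold on the fold change. Relatives and partners of the RNA regulators NANOS3, DAZL and DDX4 gave 0 calls among 19 tested genes, with *CNOT1* and *DDX3X* at 0.07 and -0.32 (limma adjusted p = 0.802 and 0.165).

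In the piRNA pathway, which silences transposons in germ cells together with DDX4, 2 of 22 tested genes were called lower and 0 higher. The calls lower were 9.09% of the list, against 1.16% of all tested genes, and 8.93% of all were called higher. *TDRD1* had 47.3, 66.7, 90.5, 129 and 207 in WT and 11.1, 29.1, 16.3, 27.1 and 32.3 in KO blastocysts, with no overlap (log2FC -2.08, standard error 0.35, limma adjusted p = 0.00104). *TDRKH* had 33.6, 41.5, 16.9, 39.6 and 41.3 in WT and 7.79, 7.92, 4.65, 10.7 and 8.07 in KO blastocysts, also with no overlap (log2FC -1.98, standard error 0.37, limma adjusted p = 0.00224). Both encode Tudor proteins that bind PIWI proteins. *GTSF1*, *PIWIL2* and *TDRD9*, the uncalled genes with the highest means, had log2FCs of -0.32, -0.37 and 0.35. The median over the list was 0.40, above the 0.25 of all genes, and 10 of its 22 genes had a mean under 10.

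Of 32 tested meiosis genes, 3 were called lower and 2 higher (9.38% and 6.25%, against 1.16% and 8.93% of all tested genes). *TERB1*, which tethers telomeres to the nuclear envelope, fell from 33.4 to 10.2 on average (log2FC -1.77, limma adjusted p = 0.00571). *SYCP3*, a component of the chromosome axis with overlapping groups, and *MND1*, a recombination factor, had log2FCs of -1.07 and -1.02 (limma adjusted p = 0.0455 and 0.0296). *MSH5* rose from 13.3 to 29.0 (log2FC 1.14, limma adjusted p = 0.0449). *STRA8*, the inducer of meiosis, was listed at 0 in every WT embryo and had 1 to 5 reads in each KO blastocyst, near the floor of detection (limma adjusted p = 0.0189). The calls higher in this list numbered 0 to 4 over the alternatives, and those lower 0 to 4. With the share of *RN18S1* as a covariate both counts were 0.

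**Figure D4:**
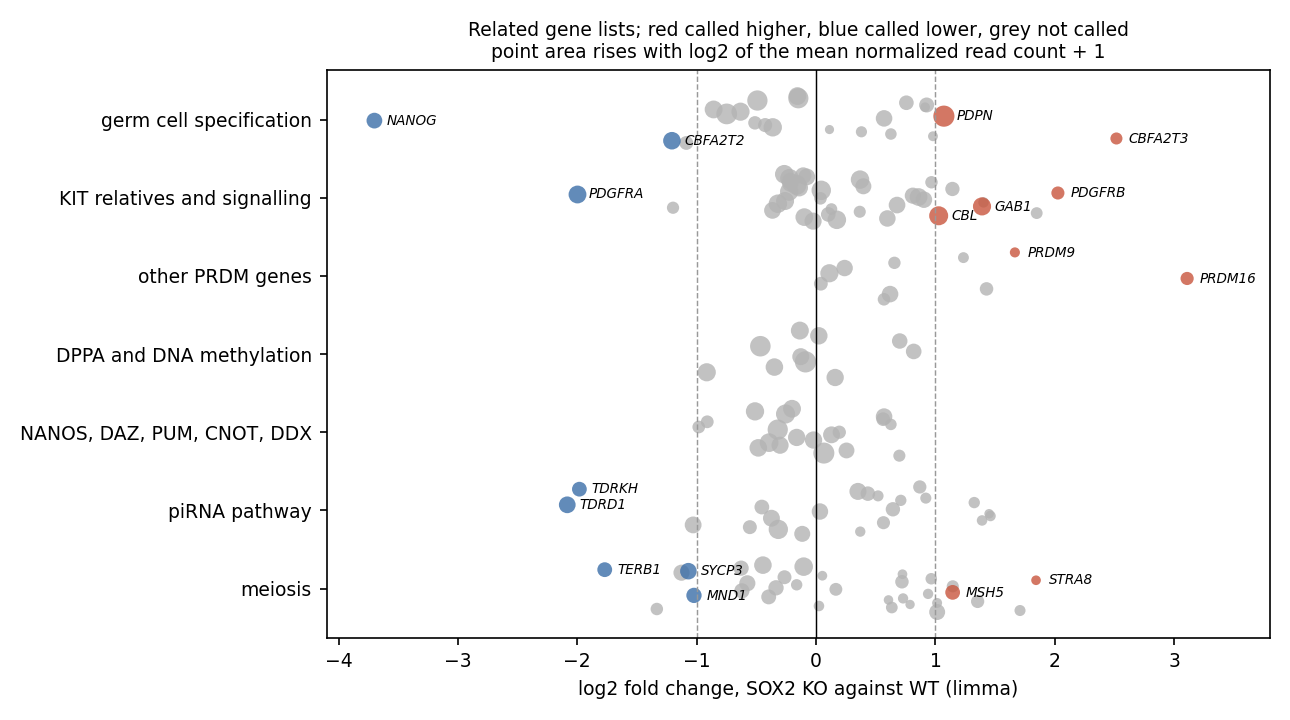
Log2FCs by limma (horizontal axis) of the tested genes of 7 related lists (vertical axis), 1 point per gene, with blue for genes called lower, red for genes called higher and grey for the rest, and an area that rises with the mean level. The called genes are named, and no list has all of its genes on the side of *KIT*, *DPPA3* and *PRDM14*.

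The genes whose values over the 10 embryos were most like those of a member were found by the mean absolute difference of log2(normalized read count + 1), each gene centred on its own mean. The search covered the genes with a symbol and a mean of at least 10, and it is a description without a test. Nearest to *KIT* were *TDRKH*, *HDAC8*, *IGFBP2*, *RNF212B* and *DPPA3*, at 0.21 to 0.32 log2 units. *IGFBP2* fell from 237 to 47.6 on average and *HDAC8* from 413 to 111. Nearest to *DPPA3* were *RNF212B*, *ZNF382*, *FZD10*, *HLTF* and *GPCPD1*, at 0.14 to 0.24 units. *RNF212B*, a meiotic recombination factor, is in both sets, with 78.5 to 97.7 in WT and 21.2 to 32.9 in KO blastocysts. Nearest to *PRDM14* were *SPIC*, *RASSF8*, *HIST1H1B*, *ZBTB44* and *GSE1*, at 0.23 to 0.28 units. *SPIC*, an ETS family factor, fell from 616 to 190 on average (log2FC -1.70, limma adjusted p = 8.21e-06).

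No gene was as close to *DDX4* or *KITLG*. The nearest to *DDX4*, *CPQ*, *MAGEH1*, *TEX11*, *PLS3* and *TUBA3E*, were 0.46 to 0.57 units away, and those given for *KITLG*, *MACC1*, *ZNF165*, *IRX2* and *ZHX1*, 0.45 to 0.48. *TEX11*, a meiosis gene, had 30.5, 4.45, 35.8, 35.0 and 70.8 in the WT embryos. It was thus highest in replicate 5 and lowest in replicate 2, as *DDX4* was.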

How the data were processed

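The submitters' processing notes name Trimmomatic, Hisat2 with the bovine assembly ARS-UCD1.2, featureCounts and DESeq2, whose size factors the authors used to scale the gene counts of each embryo. The deposited values are therefore a normalized signal. Each embryo has its own step, the value of 1 read, and all 201120 values (100%) were whole numbers of such steps (relative tolerance 1e-06), so reads were recovered by division. Annotation release, strand setting and treatment of shared reads are not given in the sources used here. Genes under 11 reads in all were not in the table.

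WT columns were matched to samples by name. *SOX2* KO columns were used by group, because their running numbers are not those of the labels. That the 5 embryos of a group came from separate cultures is not stated, so p-values measure the spread between embryos. The reads carry no molecular identifiers.

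limma (version 3.58.1, with a trend) was fitted to log2(normalized read count + 1) of 20056 genes, those whose mean reached 1. Fold changes on this scale understate changes of weakly expressed genes. DESeq2 (version 1.42.0) and edgeR (version 4.0.16) were run on recovered reads in R 4.3.3. Intervals are 95% intervals of limma. Single values were compared by two-sided exact permutation in Python 3.11.15 with scipy 1.17.1. The fits were tested on simulated counts.

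The genes, lists and tests were chosen with earlier results of these data known. Named genes are the 8 members, *SOX2*, *NANOG*, *POU5F1*, at most 4 called genes per list and direction, the 3 uncalled genes of highest mean per list, the 5 nearest genes per member and cell type markers, apart from those said to be named later. Of the genes this rule names, 2 are not reported here. Of the listed genes, 2 were matched by an older symbol through RefSeq names. Pseudocounts of 0.1 and 5, 2 other filters, 3 scalings, sample weights, 2 covariates, no fold threshold and leaving out each embryo were the other alternatives. No coordinates or sequences are given, since the gene table at hand describes another assembly.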

Additional observations from a re-analysis of the deposited data

Results flagged for a closer look

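Sets of 5 values, 1 per gene and genotype, were examined for a single embryo standing apart. Of 16 sets, 2 had one on the scale of normalized read counts. A rate of 1 in 20, or about 0.8 sets, would hold by chance only for normally distributed values. Counts near 0, such as those of *DAZL*, are not so distributed, so this rate is no measure for them. *PRDM1* had a normalized read count of 35.0 in WT replicate 4, against 2.97 to 6.49 in the other WT embryos. *DAZL* had 7.08, that is 12 reads, in WT replicate 5, and 0 or 1 read in the other WT embryos. What sets these embryos apart was not tested.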

How the results depend on the processing

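*KIT*, *DPPA3* and *PRDM14* kept direction and call in all 13 alternatives and all 10 fits without 1 embryo. *KITLG* turned negative with quantile normalization (-0.20), with the share of *RN18S1* (-0.23) or *XIST* (-0.11) as a covariate, in DESeq2 (-0.10) and in edgeR (-0.22), and ran from -0.52 (without WT replicate 2) to 0.53 without 1 embryo, with -0.18 without ko2. *PRDM1* ran from -0.88 to 0.11 without 1 embryo, and was 0.05 without WT replicate 4 and 0.11 without ko4. *DDX4* was called with quantile normalization (-1.79), with *XIST* as a covariate (-1.58), in DESeq2 (-1.97) and in edgeR (-2.08), and ran from -1.86 to -0.96 without 1 embryo. The share of *RN18S1* as a covariate gave *DDX4* -1.63 (limma adjusted p = 0.285). *PRDM1* and *DAZL* had no value at a mean of at least 10. The shift between *PRDM14* and *DPPA3* ran from below 0 (-0.034 without ko3 and -0.030 without WT replicate 5) to 0.29 without 1 embryo.

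Genes called higher, 1792 in the analysis reported, numbered 1002 with a pseudocount of 5, 502 at a mean of at least 10, 629 with quantile normalization, 3229 with sample weights, 137 with the share of *RN18S1* as a covariate and 771 (without ko5) to 3057 (without ko4) without 1 embryo. Genes called lower, 232, numbered 641 with no fold threshold, 447 with quantile normalization, 83 with the share of *RN18S1* and 176 to 267 without 1 embryo. The median log2 fold change of all genes, 0.25, became -0.02 with quantile normalization, -0.04 at a mean of at least 10, 0.14 with equal totals and 0.15 with the share of *RN18S1*.

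Counts in the lists moved as follows. With no fold threshold, 6 specification genes, 2 DPPA and methylation genes and 1 RNA regulator were lower, and 5 KIT relatives and signal carriers higher. With the share of *RN18S1*, specification genes gave 0 higher and 1 lower, the KIT list 1 higher, the PRDM family 0 higher, the piRNA list 1 lower and the meiosis list 0 higher and 0 lower. At a mean of at least 10 the specification list had 1, the PRDM list 0 and the meiosis list 0 higher. With equal totals there were 1 specification and 1 meiosis gene higher and 1 DPPA list gene lower. With a pseudocount of 5 the PRDM list had 1 and the meiosis list 0 higher, and the meiosis list 1 lower. Quantile normalization gave 1 PRDM and 0 meiosis genes higher. A pseudocount of 0.1 gave 1 meiosis gene higher, and median log ratio scaling 1 lower. Sample weights gave 1 DPPA list gene lower and 1 piRNA and 4 meiosis genes higher. DESeq2 gave 4 meiosis genes higher. edgeR gave 1 gene higher in each of the KIT, PRDM, piRNA and meiosis lists. Without 1 embryo, the specification list had 1 to 2 higher, the KIT list 1 to 4, the PRDM list 1 to 3, the piRNA list 0 to 1 and the meiosis list 1 to 4, while 0 to 1 DPPA list genes and 1 to 3 meiosis genes were lower. The cause was not tested.

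No paired analysis was possible because KO columns could not be tied to numbered samples of the labels. Genes near 3 reads per embryo, such as *DAZL*, *STRA8* and *PRDM9*, are limited by counting error.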

Other observations

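Summed levels of the piRNA and meiosis lists differed among the WT embryos, which is given as a description with no test. The 22 piRNA pathway genes in the table summed to 736, 819, 1055, 1026 and 1255 normalized read counts in WT replicates 1 to 5, and to 674 to 812 in the KO blastocysts. The 32 meiosis genes summed to 722, 722, 939, 744 and 1119 in WT and to 519 to 798 in KO blastocysts. Replicates 3 and 5, which had the most *DDX4*, were also highest in both sums. *SYCP2*, a partner of SYCP3 that was named after its values were seen, had 109 and 158 in these embryos and 58.0, 10.4 and 17.9 in replicates 1, 2 and 4, and 11.5 to 31.2 in KO blastocysts. Its log2 fold change was -1.13 and it was not called. *RNF17*, a piRNA pathway gene also named afterwards, had 58.7 and 61.4 in the same embryos and 19.8, 1.48 and 4.66 in the others. Other genes of these lists had another order. *TERB1* was even, at 27.2 to 37.1 in WT. *TDRKH* and *MND1* were lowest in replicate 3, at 16.9 and 28.8. *MSH5* was about equally low in replicates 3 and 4, at 6.96 and 6.99. *KIT* and *PRDM14* did not share the order either, since *KIT* was highest in replicate 5 and lowest in replicate 3, and *PRDM14* was lowest in replicate 5.

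Of 9 sperm markers 6 were in the table, and their summed normalized read counts were 2.97 to 37.2 in WT and 7.39 to 20.9 in KO blastocysts.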
